A study of Mus musculus with 8 samples.

Results

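The keratin gene clusters, type I and type II, are the rows of neighbouring keratin genes that epithelial cells use and that mesenchymal cells mostly keep silent. They were taken here as fixed stretches of the mouse genome build mm9. The type II cluster is chr15:101180001-101870000, 690 kb in 69 bins of 10 kb, and the type I cluster, with its keratin-associated genes, is chr11:99100001-100130000, 1030 kb in 103 bins. Together they hold 172 of the 245206 bins used genome-wide, and all 172 passed the filter on low signal. Each cluster was set against 1 Mb on each side, 192 bins for type II and 198 for type I. The place of the clusters was given beforehand and used no measured value, but the clusters were picked with earlier results of these data known.

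The study profiled epitope-tagged histone H3 by chromatin immunoprecipitation and sequencing (ChIP-seq) against the HA tag in C3H10T1/2 cells, a mesenchymal progenitor line from C3H mouse embryos. The groups are 4 lines that each stably express 1 FLAG-HA-tagged histone: H3.3K36M, H3.3WT, H3.1K36M and H3.1WT. All carry the tag, WT is the unmutated variant, and K36M puts a methionine in place of the lysine that carries H3K36 methylation. Each line gave 1 HA library, so differences between lines could not be checked on replicates, no test was made, and every interval is a 95% interval from read counts that covers counting error only. The sources used here do not give whether a line is 1 clone or a pool, and the cells cannot be checked against markers because ChIP holds no expression values.

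Keratins are the intermediate filament proteins of epithelia, and a filament needs a type I and a type II keratin as partners. Krt8 with Krt18 is the pair of simple epithelia, Krt5 with Krt14 that of the basal epidermis, and other members serve hair. Keratin-associated proteins (Krtap) form the matrix between keratin filaments in hair. H3.1 is placed on DNA mainly during replication, whereas H3.3 is also placed outside replication, much of it at active genes and regulatory elements.

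The RefSeq gene table used for names is in build GRCm38.p6 and not mm9. Genes were therefore not placed on bins, and only their names and neighbour order are used. In that order the type II row holds 26 protein-coding Krt genes, opening with Krt80 and Krt7 and closing with Krt8 and Krt18, the last of which encodes a type I keratin. The type I row holds 27 Krt genes with 23 Krtap genes lying between Krt40 and Krt33a. The 250 bases before the transcription start of 3 genes are shown to contrast promoters rich in CG with one that holds TATAAA: Krt7 and Krt18, simple epithelial keratins near the outer ends of the type II row, and Krtap4-6 from the middle of the type I row. The sequences are from RefSeq (GRCm38.p6) and run 5′ to 3′ on the gene's strand. Capitals mark every CG dinucleotide in Krt7 and Krt18 and the TATAAA motif in Krtap4-6.
Krt7: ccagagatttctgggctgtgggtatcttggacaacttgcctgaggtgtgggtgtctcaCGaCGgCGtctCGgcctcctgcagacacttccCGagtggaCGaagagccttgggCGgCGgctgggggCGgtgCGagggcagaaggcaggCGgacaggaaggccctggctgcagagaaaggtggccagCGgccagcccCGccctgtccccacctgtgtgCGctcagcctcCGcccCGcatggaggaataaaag
Krt18: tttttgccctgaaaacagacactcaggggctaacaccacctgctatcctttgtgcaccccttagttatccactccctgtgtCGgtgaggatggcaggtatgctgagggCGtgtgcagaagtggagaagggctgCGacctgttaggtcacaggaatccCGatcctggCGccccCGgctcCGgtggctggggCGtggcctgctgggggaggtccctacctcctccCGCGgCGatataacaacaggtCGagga
Krtap4-6: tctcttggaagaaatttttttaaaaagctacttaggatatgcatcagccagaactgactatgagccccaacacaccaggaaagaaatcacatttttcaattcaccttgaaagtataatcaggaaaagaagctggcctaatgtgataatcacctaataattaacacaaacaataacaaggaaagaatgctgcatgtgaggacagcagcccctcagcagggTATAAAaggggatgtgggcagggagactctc

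Krt7 holds 16 CG and Krt18 holds 12, against a median of 6 over all 32851 promoters of the table, while Krtap4-6 holds 0. They are the 2 highest of the 16 matched Krt promoters on chromosome 15, whose median is 3.5 CG; Krt8 holds 3 and Krt5 holds 2. TATAAA on the gene's strand was present in 20 of the 21 Krtap promoters matched (95.2%), against 7.59% of all promoters. It was not particular to Krtap genes. Of the Krt promoters matched, 12 of 21 on chromosome 11 (57.1%) and 3 of 16 on chromosome 15 (18.8%) held it too. The 21 Krtap promoters held a median of 1 CG. Only 16 of 26 Krt genes on chromosome 15 and 20 of 27 on chromosome 11 matched the promoter table, and Krt13 gave 2 of the 21 promoters. The counts and medians above thus describe the matched promoters only, and no comparison over all Krt genes of a row can be made. A motif match is a description of the letters and not a site in use, and no promoter sequence was tied to a value of the HA signal.

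The reads recovered for the 4 HA libraries summed to 38783917 in H3.3K36M, 46749609 in H3.3WT, 41705735 in H3.1K36M and 35487141 in H3.1WT. Medians were 116 to 151 reads per bin. Values are RPM, reads scaled to library size, per 10 kb bin. The RPM of a library summed to between 0.429% and 0.512% more than this scaling implies. The sums of reads are therefore not the exact library sizes. The library median over all bins was 3.004 RPM in H3.3K36M, 2.77 in H3.3WT, 3.64 in H3.1K36M and 3.65 in H3.1WT. Input libraries were not used here, so placement of the histone, background reads and how well DNA of a region is recovered cannot be told apart.

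Beside its flanks, the type I cluster was poor in H3.3 in every 100 kb window, and the type II cluster was poor in H3.3 mainly in its interior. H3.1 was also lower in the type I cluster than in its flanks on average, to a smaller degree, and was not lower than the flanks on average in the type II cluster.

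In the type I cluster the mean signal was 3.89 RPM in H3.3K36M, 3.92 in H3.3WT, 4.44 in H3.1K36M and 4.15 in H3.1WT. Its flanks held 9.25, 10.4, 6.28 and 6.02 RPM in the same order of lines. The cluster was therefore 2.38-fold lower than its flanks in H3.3K36M (95% interval 2.34 to 2.42) and 2.66-fold lower in H3.3WT (2.62 to 2.70). In H3.1 it was 1.42-fold lower in H3.1K36M (1.39 to 1.44) and 1.45-fold lower in H3.1WT (1.43 to 1.48). Set against the rest of chromosome 11 instead, the cluster stayed lower in both H3.3 libraries, with ratios of 0.816 in H3.3K36M and 0.768 in H3.3WT, but was higher in both H3.1 libraries, with 1.08 and 1.04. The low H3.1 values thus hold against the flanks and not against the chromosome.

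In the type II cluster the mean signal was 6.63 RPM in H3.3K36M, 6.75 in H3.3WT, 6.51 in H3.1K36M and 5.96 in H3.1WT, against 7.47, 9.46, 5.72 and 5.38 RPM in the flanks. Cluster over flanks was 0.887 in H3.3K36M (0.872 to 0.903) and 0.714 in H3.3WT (0.703 to 0.725). It was 1.14 in H3.1K36M (1.12 to 1.16) and 1.11 in H3.1WT (1.09 to 1.13), so the H3.1 signal was slightly higher in the cluster than in both flanks pooled. Against the end-side flank alone it was 1.06 in H3.1K36M (1.04 to 1.08) and 0.983 in H3.1WT (0.962 to 1.004). The flanks differ between sides, so the choice of side bears on these values. The flank on the side of the cluster's start held 5.52 RPM in H3.3K36M and 7.46 in H3.3WT, while the flank on the other side held 9.34 and 11.4. Against the start-side flank alone the ratio in H3.3K36M turned to 1.20, and that in H3.3WT was 0.905. Against the rest of chromosome 15 both H3.3 ratios turned, to 1.46 in H3.3K36M and 1.21 in H3.3WT.

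**Figure D1:**
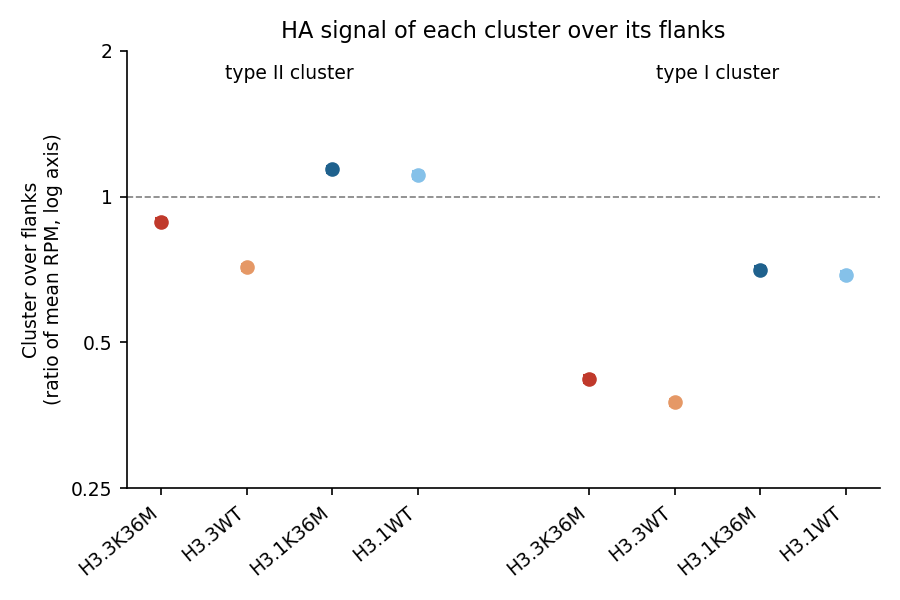
Mean HA signal of each cluster over that of its flanks, per library, on a log axis; bars are exact 95% counting intervals and lie within the points, and the dashed line marks a ratio of 1. Both H3.3 libraries lie below 1 in both clusters and lowest in the type I cluster (0.420 and 0.376), while both H3.1 libraries lie above 1 in the type II cluster (1.14 and 1.11).

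The share of bins rich in signal separates the clusters in the same way. In the type I cluster 7 of 103 bins (6.80%) in H3.3K36M exceeded the library median by 2-fold or more, as did 16 (15.5%) in H3.3WT, against 166 and 181 of 198 flank bins. Over all bins of the genome this share was 15.4% in H3.3K36M and 23.1% in H3.3WT, so the flanks lie far above the genome and the cluster below it. In H3.1K36M 0 and in H3.1WT 1 of the 103 bins passed the same rule, against 1.6% and 1.84% of all bins. Of the 198 flank bins, 54 (27.3%) passed in H3.1K36M and 40 (20.2%) in H3.1WT. In the type II cluster 25 of 69 bins (36.2%) passed in H3.3K36M and 30 (43.5%) in H3.3WT, against 104 and 149 of 192 flank bins. For H3.1 the type II cluster had 17 bins (24.6%) in H3.1K36M and 11 (15.9%) in H3.1WT, and its flanks had 34 and 27 of 192. Those H3.1 shares in the type II cluster and in its flanks are all several times the genome's.

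The type II cluster held more signal than the type I cluster in every library. The ratio of type II to type I was 1.71 in H3.3K36M (1.67 to 1.74), 1.72 in H3.3WT (1.69 to 1.76), 1.47 in H3.1K36M (1.44 to 1.496) and 1.44 in H3.1WT (1.40 to 1.47). The single bins of the type II cluster ran from 2.02 to 19.2 RPM in H3.3K36M, with a median of 4.12, and from 2.45 to 17.2 RPM in H3.3WT, with a median of 5.18. In H3.1 they ran from 3.74 to 16.4 RPM in H3.1K36M, with a median of 5.93, and from 2.66 to 16.5 RPM in H3.1WT, with a median of 5.26. In H3.3K36M and H3.3WT the mean thus lay well above the median, and the richest bins lay at the ends of the cluster.

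The type I bins ran from 0.570 to 9.63 RPM in H3.3K36M, with a median of 3.52, and from 0.581 to 11.2 RPM in H3.3WT, with a median of 3.57. They ran from 1.28 to 7.23 RPM in H3.1K36M, with a median of 4.31, and from 1.08 to 7.33 RPM in H3.1WT, with a median of 4.05. Of the 103 bins, 29 in H3.3K36M, 27 in H3.3WT, 21 in H3.1K36M and 26 in H3.1WT lay below the library median, so most type I bins were low beside their flanks and not beside the genome.

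Along the type II cluster, H3.3 was high at both ends and low between them. The first 100 kb, chr15:101180001-101280000, held 14.1 RPM per 10 kb in H3.3K36M and 11.9 in H3.3WT, and the last window, chr15:101780001-101870000, held 10.3 and 10.8. The 4 windows from chr15:101380001 to chr15:101780000 held 3.31 to 4.34 RPM in H3.3K36M and 3.799 to 4.70 RPM in H3.3WT. This 400 kb interior, delimited after its values were seen, was 2.00-fold lower than the flanks in H3.3K36M (1.95 to 2.06) and 2.13-fold lower in H3.3WT (2.08 to 2.18). In H3.1 the same interior was 1.05-fold lower in H3.1K36M (1.03 to 1.08) and 1.08-fold lower in H3.1WT (1.06 to 1.11). The interior was thus low in H3.3 beside both flanks pooled and close to them in H3.1. The start-side flank alone was nearer to it in H3.3, at 5.52 RPM in H3.3K36M and 7.46 in H3.3WT. In H3.1 the interior's 5.43 RPM in H3.1K36M and 4.96 in H3.1WT lay above that flank's 5.27 and 4.67. Low H3.3 bins were not particular to the interior. The start-side flank had lower quartiles of 3.37 RPM in H3.3K36M and 4.90 in H3.3WT, and minima of 2.31 and 2.64. Beside the genome the interior's median bin was not low, at 3.73 RPM in H3.3K36M and 4.35 in H3.3WT, above the library medians. By means, the interior's 3.73 RPM in H3.3K36M lay below the 3.97 of all bins. Its mean of 4.44 RPM in H3.3WT lay above the 3.97 of all bins in that library. Of all 69 type II bins, 5 in H3.3K36M and 1 in H3.3WT lay below the library median.

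**Figure D2:**
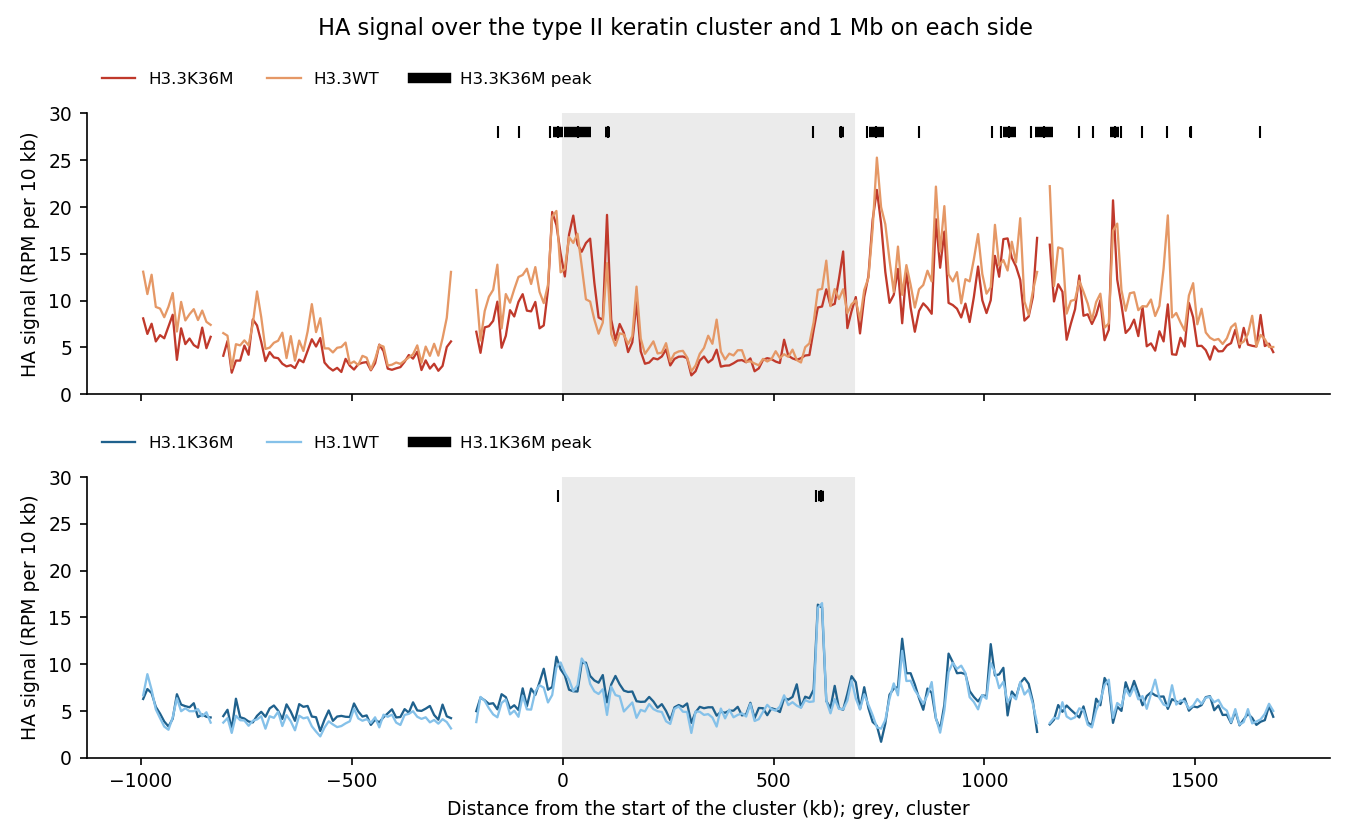
HA signal in RPM per 10 kb bin over the type II cluster (grey) and 1 Mb on each side, by distance from the cluster's start in kb, with H3.3K36M and H3.3WT above and H3.1K36M and H3.1WT below; black marks are peaks of the authors' lists, short ones drawn as a tick, and gaps in the lines are wider rows left out. H3.3 is high at both ends of the cluster and low in its interior, and both H3.1 libraries show a narrow maximum of about 16 RPM near the far end (16.4 and 16.5 at the highest bins).

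At the start edge of the type II cluster the H3.3 lines did not change in the same direction. The 100 kb inside the start edge over the 100 kb outside it gave 1.21 in H3.3K36M (1.16 to 1.26) and 0.881 in H3.3WT (0.849 to 0.913). At the far edge, inside over outside was 0.752 in H3.3K36M (0.721 to 0.785) and 0.707 in H3.3WT (0.682 to 0.734), whereas it was 1.60 in H3.1K36M and 1.51 in H3.1WT. The 100 kb inside the far edge, at 8.48 RPM in H3.1K36M and 8.05 in H3.1WT, includes the pair of bins of the H3.1 maximum. That pair raises these H3.1 ratios, and a ratio without it was not computed.

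The 3 bins richest in H3.3K36M were chr15:101280001-101290000 with 19.2 RPM, against 14.0 in H3.3WT, chr15:101200001-101210000 with 19.1 against 16.2, and chr15:101190001-101200000 with 17.1 against 16.8. The richest H3.3WT bin was chr15:101210001-101220000, with 16.0 RPM in H3.3K36M and 17.2 in H3.3WT. These 4 bins start between 10 and 100 kb into the cluster, and their H3.1 signal was between 4.58 and 8.35 RPM in both H3.1 libraries.

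The H3.1 maximum of the type II cluster lay elsewhere. The neighbouring bins chr15:101780001-101790000 and chr15:101790001-101800000 held 16.4 and 16.1 RPM in H3.1K36M and 16.0 and 16.5 RPM in H3.1WT. H3.3K36M had 9.27 and 9.38 RPM there and H3.3WT had 11.2 and 11.3. Between 0.0440% and 0.0530% of all bins reached these H3.1 levels in the same library, against 2.55% to 5.10% for the H3.3 levels. Highest of the cluster in both H3.1 libraries, this pair of bins lay well below the H3.3 maxima at the other end.

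Along the type I cluster, H3.3 was lower than in either flank in all 11 windows. The windows held between 2.86 and 5.32 RPM in H3.3K36M and between 2.22 and 5.86 RPM in H3.3WT. The lowest stretch was the 300 kb chr11:99500001-99800000, again delimited after its values were seen, with 2.96 RPM in H3.3K36M and 2.48 in H3.3WT, which is 3.13-fold (3.02 to 3.24) and 4.21-fold (4.07 to 4.36) below the flanks. H3.1 in the same stretch held 3.63 RPM in H3.1K36M and 3.64 in H3.1WT, which is 1.73-fold and 1.65-fold below the flanks. A pair of neighbouring bins within it, chr11:99680001-99690000 and chr11:99690001-99700000, was low in every library. They held 0.932 and 0.570 RPM in H3.3K36M, 0.925 and 0.581 in H3.3WT, 1.61 and 1.37 in H3.1K36M, and 1.70 and 1.08 in H3.1WT. At least 96.9% of all bins held as much or more in each library. The pair was not alone, as the bins 640 and 680 kb from the cluster's start lie in the same stretch and were low too. They held 1.27 and 1.01 RPM in H3.3K36M, 0.86 and 1.35 in H3.3WT, 2.10 and 1.28 in H3.1K36M, and 1.58 and 2.01 in H3.1WT. All these bins are low in both variants, and the part of mappability and of DNA recovery in their values was not tested.

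Both edges of the type I cluster showed as steps in H3.3. The 100 kb inside the start edge held 4.41 RPM in H3.3K36M and 4.68 in H3.3WT, against 9.07 and 9.57 RPM just outside, ratios of 0.487 (0.459 to 0.516) and 0.489 (0.465 to 0.515). At the far edge the ratios were 0.594 (0.561 to 0.629) in H3.3K36M and 0.554 (0.528 to 0.581) in H3.3WT. In H3.1 the step was smaller, with 0.887 in H3.1K36M and 0.840 in H3.1WT at the start edge. At the far edge the H3.1 ratios were 0.960 (0.911 to 1.01) and 0.968 (0.912 to 1.03), so no step was detectable at this depth.

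**Figure D3:**
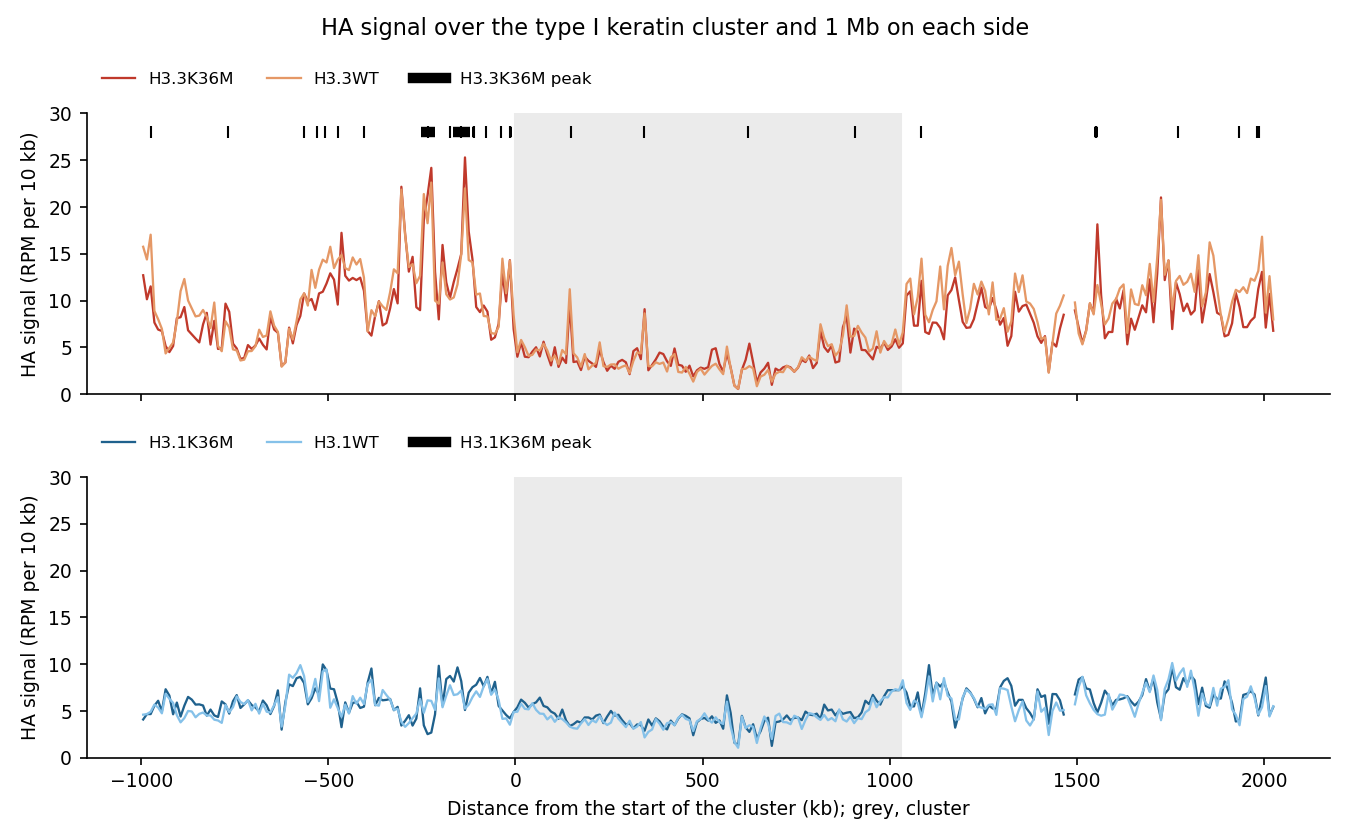
HA signal in RPM per 10 kb bin over the type I cluster (grey) and 1 Mb on each side, drawn as for the type II cluster. Both H3.3 libraries drop at the edges of the cluster and stay between 2.22 and 5.86 RPM in every 100 kb window inside it, with a few single-bin maxima. The H3.1 windows run from 3.24 to 7.23 RPM in H3.1K36M, and both H3.1 libraries are highest at the far end.

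Setting H3.3K36M beside H3.3WT addresses whether mutated H3.3 is distributed over the clusters as unmutated H3.3 is. Summed over a cluster, the H3.3 signal of the lines did not differ beyond counting error at library-size scaling, whereas the flanks held less of it in H3.3K36M. H3.3K36M over H3.3WT was 0.982 in the type II cluster (0.963 to 1.002) and 0.991 in the type I cluster (0.970 to 1.01). In the flanks the ratio was 0.790 around type II (0.782 to 0.799) and 0.887 around type I (0.878 to 0.896). Other scalings moved the cluster ratios outside their intervals: the median of all bin ratios gave 0.912 for type II and 0.921 for type I, and the chromosome's median gave 1.13 and 1.02. Taken relative to its own flanks, a measure on which library scaling has no bearing and which was added after seeing the data, H3.3K36M over H3.3WT was 1.24 in the type II cluster (1.22 to 1.27) and 1.12 in the type I cluster (1.09 to 1.14).

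The median log2 ratio over all bins of the genome was 0.10 for this pair, so a bin at the genome's middle was itself slightly higher in H3.3K36M. Relative to that middle, the median bin of the type II cluster lay at -0.29 and that of the type I cluster at -0.12. Relative to the middle of their own chromosomes both lay at 0.01. Lower in H3.3K36M were 47 of the 69 type II bins and 55 of the 103 type I bins. In the flanks 174 of 192 bins around type II and 145 of 198 around type I were lower. Lower bins were thus a smaller share of each cluster than of its flanks.

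No bin of either cluster was 2-fold apart between H3.3K36M and H3.3WT, in either direction, whereas genome-wide 2.94% of bins were 2-fold or more higher in H3.3K36M and 1.81% were 2-fold or more lower. In the flanks 0 bins were that much higher, and 4 of the type II flank bins and 0 of the type I flank bins that much lower. The spread between bins was nevertheless larger than counting error gives. The SD of the log2 ratio was 0.32 in the type II cluster, against 0.14 from counting alone, and 0.28 in the type I cluster, against 0.18.

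The differences were ordered along the clusters. In the type II cluster the ratio of H3.3K36M to H3.3WT was 1.18 in the first 100 kb (1.14 to 1.23) and 1.04 in the second (0.989 to 1.09). It was 0.840, 0.704, 0.904 and 0.928 in the 4 interior windows and 0.953 (0.912 to 0.996) in the last. At library-size scaling the start of the cluster was therefore higher and the interior lower in H3.3K36M. The median log2 ratio over chromosome 15 was itself below 0, at -0.196, and the windows were not scaled to it. Lower were 34 of the 40 interior bins, beside 174 of the 192 flank bins, and the interior's ratio of 0.841 (0.813 to 0.870) lay above the 0.790 of the flanks. The bin with the highest ratio, chr15:101240001-101250000, had 16.6 RPM in H3.3K36M and 9.91 in H3.3WT, 1.68-fold (1.49 to 1.89). Its neighbour at chr15:101230001-101240000 had 16.2 RPM in H3.3K36M and 10.1 in H3.3WT. The lowest, chr15:101520001-101530000 in the interior, had 3.39 RPM in H3.3K36M and 6.26 in H3.3WT, a ratio of 0.542 (0.438 to 0.669). These bins were ranked on the same reads, which overstates extreme ratios, and the intervals do not allow for it.

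In the type I cluster the order along the row was the opposite. The ratio was 0.942 and 0.917 in the first 2 windows, 1.13, 1.18 and 1.29 in the windows from 400 to 700 kb, and 0.889 to 0.907 in the last 3. The lowest stretch of the cluster, chr11:99500001-99800000, was thus 1.19-fold higher in H3.3K36M (1.14 to 1.25), with 24 of its 30 bins higher. Its limits were set after the values were seen and enclose the windows lowest in H3.3WT. This choice can lift the ratio, and the interval does not allow for it. The next window held 3.06 RPM in H3.3K36M, near the 3.05 of the stretch's first window, but 3.12 in H3.3WT, a ratio of 0.981. The genome's median bin was itself slightly higher in H3.3K36M, at a log2 ratio of 0.10. For H3.1K36M over H3.1WT the same stretch gave 0.996 (0.954 to 1.04), with 15 of 30 bins higher in H3.1K36M. The bin with the highest ratio, chr11:99720001-99730000, lies in it and had 5.41 RPM in H3.3K36M and 3.01 in H3.3WT, 1.80-fold (1.44 to 2.24). The bin with the lowest ratio, chr11:100020001-100030000, had 4.74 RPM in H3.3K36M and 6.60 in H3.3WT, a ratio of 0.718 (0.595 to 0.865).

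**Figure D4:**
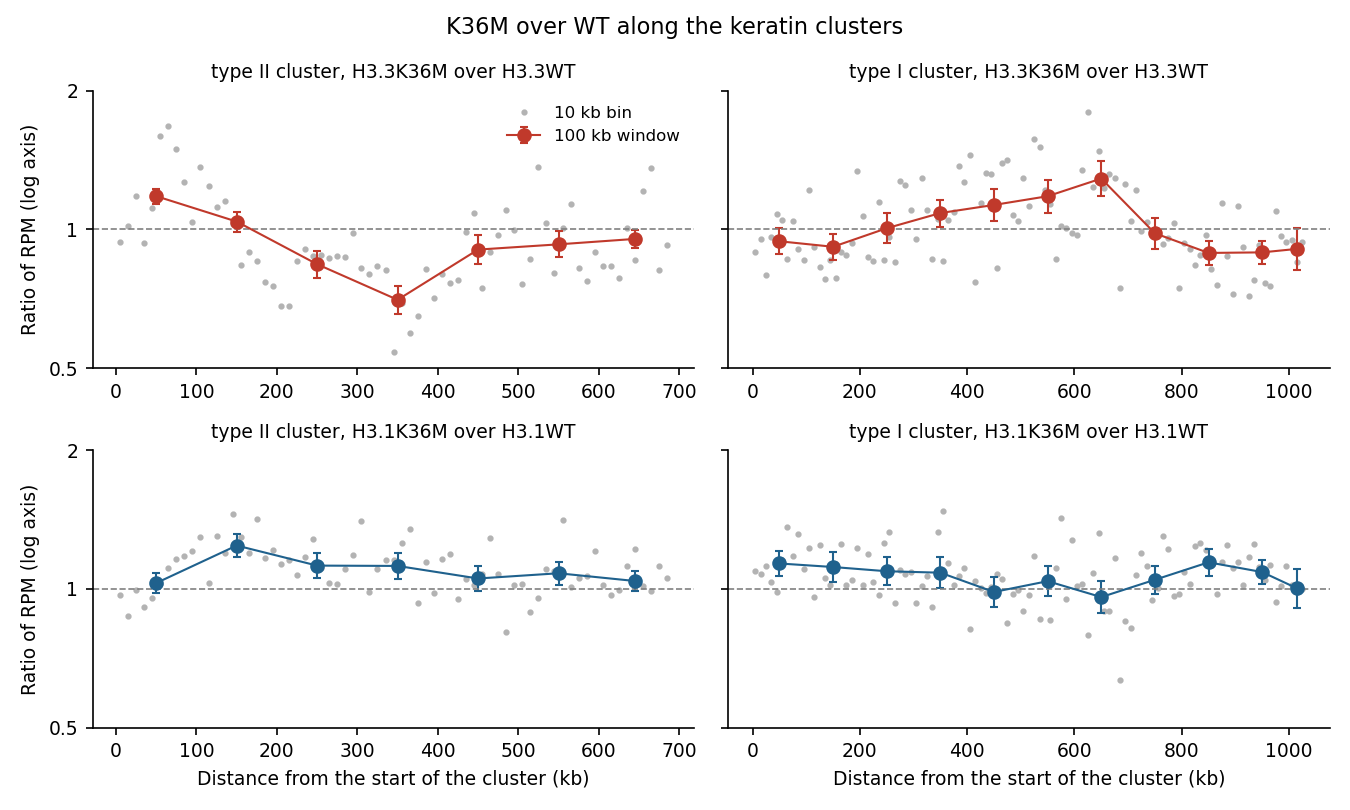
Ratio of RPM between K36M and WT along each cluster, H3.3 above and H3.1 below, on a log axis; grey points are 10 kb bins, coloured points are 100 kb windows with exact 95% counting intervals, and the last window of each cluster is shorter. For H3.3 the ratio is lowest in the interior of the type II cluster (0.704) and highest in the interior of the type I cluster (1.29), and for H3.1 it stays between 0.960 and 1.24 in every window.

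For H3.1 the K36M and WT lines differed little. H3.1K36M over H3.1WT was 1.09 in the type II cluster (1.07 to 1.12), against 1.06 in its flanks, and 1.07 in the type I cluster (1.05 to 1.09), against 1.04 in its flanks. Relative to the flanks this left 1.03 in the type II cluster (1.001 to 1.05) and 1.03 in the type I cluster (1.0004 to 1.05). The median bin lay 0.14 on the log2 scale above that of all bins in the type II cluster and 0.09 above it in the type I cluster. No bin of either cluster was 2-fold apart, beside 0.0122% of all bins with a 2-fold or greater excess in H3.1K36M and 0.064% with such a deficit. The SD of the log2 ratio was 0.17 in the type II cluster, against 0.14 from counting alone, and 0.19 in the type I cluster, against 0.17. The largest window ratio was 1.24 (1.17 to 1.32) in the second 100 kb of the type II cluster.

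The comparison of the variants within a state asks where H3.3 and H3.1 part. In the unmutated pair, H3.3WT over H3.1WT was 1.13 in the type II cluster (1.11 to 1.16) and 0.945 in the type I cluster (0.925 to 0.966), against 1.76 and 1.73 in their flanks. The mutated pair, H3.3K36M over H3.1K36M, gave 1.02 in the type II cluster (0.998 to 1.04) and 0.876 in the type I cluster (0.858 to 0.895), against 1.31 and 1.47 in the flanks. The type II sums rest on the rich ends: with 50 kb trimmed from each end the ratio was 0.865 for K36M and 1.002 for WT. Of the 69 type II bins, 49 were lower in H3.3K36M than in H3.1K36M and 40 lower in H3.3WT than in H3.1WT. These counts alone do not set the cluster apart, because the median bin of the genome was also lower in H3.3 in both pairs. The median log2 ratio of the type II bins was -0.07 in the unmutated and -0.47 in the mutated pair. The variants have unlike distributions over the genome, and the median log2 ratio of all bins was -0.43 in the unmutated and -0.30 in the mutated pair. With that median taken as 0, H3.3 was the higher variant in the type I cluster too, at 1.29 in the unmutated and 1.09 in the mutated pair, so which variant is higher there depends on the scaling. Relative to the flanks, where scaling has no bearing, H3.3 over H3.1 was 0.645 in the type II cluster and 0.546 in the type I cluster for WT, and 0.780 and 0.595 for K36M.

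Bins with 2-fold or more of the H3.1 signal in H3.3 were a smaller share of each cluster than of its pooled flanks. In the type II cluster 7 of 69 bins (10.1%) had 2-fold or more of the H3.1WT signal in H3.3WT and 0 had a deficit of that size, beside 10.3% and 16.8% of all bins, while 55 of 192 flank bins (28.6%) were that much higher. In the type I cluster 3 of 103 bins were that much higher and 3 that much lower (2.91% each), against 66 of 198 flank bins higher (33.3%) and 0 lower. For the mutated pair, 6 type II bins (8.70%) had such an excess in H3.3K36M over H3.1K36M and 1 (1.45%) was that much lower. In type I, 2 bins (1.94%) were higher and 1 (0.971%) lower. Of all bins, 8.18% were higher and 3.29% lower. Of the flank bins, 14.6% around type II and 19.7% around type I were higher, with 5.32% in the start-side flank of type II. The type II count of higher bins is near the genome's share in both pairs, and the type I count is below it. In the unmutated pair, 0 of the 192 type II flank bins had a 2-fold deficit either. The bin with the highest ratio of the type II cluster in both pairs was chr15:101280001-101290000, with 3.23-fold for K36M (2.79 to 3.75) and 3.06-fold for WT (2.57 to 3.65). In the type I cluster it was chr11:99440001-99450000 in both pairs, with 9.09 RPM in H3.3K36M and 8.64 in H3.3WT, against 2.89 in H3.1K36M and 2.18 in H3.1WT. That is 3.14-fold for K36M (2.55 to 3.90) and 3.97-fold for WT (3.101 to 5.13).

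The authors' peak lists, which give positions without a height, name the places where the K36M lines had called enrichment. The H3.3K36M list has 5 peaks that touch the type II cluster, covering 91.2 kb of it (13.2%), and 4 in the type I cluster, covering 7.2 kb (0.699%). A peak lies in 12 of 69 type II bins (17.4%) and in 5 of 103 type I bins (4.85%), beside 4.25% of all bins and 17.7% and 15.7% of the type II and type I flank bins. The flank sides differ: 6.38% of bins at the start side and 28.6% at the end side of type II, and 25% and 6.12% for type I. The type I share is thus near those of the genome and of its end-side flank, and the type II share lies between those of its flanks.

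The type II peaks sit at both ends, except the 1 kb peak, which lies within the interior near its far limit. The longest, chr15:101183001-101247400, is 64.4 kb long, and chr15:101157401-101180800 reaches 0.8 kb into the cluster from the start side. Those at chr15:101280401-101292800 and chr15:101834801-101847400 are 12.4 and 12.6 kb long, and the last, chr15:101772201-101773200, is 1 kb. Bins with a peak held a median of 15.6 RPM in H3.3K36M, the line the list is named for, and 12.3 RPM in H3.3WT. Bins without one held 3.86 RPM in H3.3K36M and 4.71 in H3.3WT. The list chose these bins by the H3.3K36M signal, and the sources used here do not give the control used in calling, so their values are a description. The 64.4 kb peak reaches into the bin with the highest ratio of H3.3K36M to H3.3WT in the cluster.

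The 4 type I peaks are short: chr11:99247201-99249600 (2.4 kb), chr11:99441201-99443400 (2.2 kb), chr11:99719801-99720800 (1 kb) and chr11:100007801-100009400 (1.6 kb). They were set beside the nearest 2 bins on each side in H3.3WT. The bin of the first held 11.2 RPM in H3.3WT against 4.33 in its neighbours, 2.59-fold (2.32 to 2.90), and that of the second held 8.64 against 3.71, 2.33-fold (2.06 to 2.64). The bins of the third stood 1.66-fold above their neighbours (1.41 to 1.96), and the bin of the fourth did not stand above them, at 0.844 (0.741 to 0.958). The first and second peak thus lie on bins that stood out in H3.3WT as well. At the third, the bins held 2.73 and 3.01 RPM in H3.3WT and the touching bins 2.69 and 2.77, so the 1.66-fold came from the outer neighbours, with 0.581 and 0.860 RPM. H3.1WT at the same places gave 0.940, 0.672, 1.28 and 0.890 of the neighbours.

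Of the 73 peaks of the H3.1K36M list in the whole genome, 2 lie in the type II cluster and 0 in the type I cluster. They are chr15:101779401-101783400 (4 kb) and chr15:101786001-101799200 (13.2 kb) and touch 3 of the 69 bins (4.35%), beside 0.0338% of all bins and 1 of the 192 flank bins. Of these 3 bins, 2 are the pair of the H3.1 maximum described above, and the other, chr15:101770001-101780000, held 7.28 RPM in H3.1K36M and 6.03 in H3.1WT. H3.1WT stood 2.85-fold above the neighbouring bins at the longer peak (2.60 to 3.12), beside 2.59-fold (2.39 to 2.81) in H3.1K36M. K36M and WT differed little there, with H3.1K36M over H3.1WT at 1.02 (0.912 to 1.14) and 0.971 (0.868 to 1.09) in the bins chr15:101780001-101790000 and chr15:101790001-101800000.

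The course of the signal along each cluster was shared by lines of the same variant more than by lines of the same state. Pearson's r of log2 RPM across bins was 0.932 between H3.3K36M and H3.3WT in the type II cluster (69 bins) and 0.909 in the type I cluster (103 bins). It was 0.917 and 0.895 between H3.1K36M and H3.1WT. The pairs of an H3.3 with an H3.1 library gave 0.584 to 0.616 in the type II cluster and 0.534 to 0.676 in the type I cluster. These correlations describe bins that adjoin each other and share sequence and mappability, and carry no test.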

How the data were processed

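HA ChIP-seq of 4 C3H10T1/2 lines gave 1 HA and 1 input library each (8 libraries), grouped by the genotype and description labels. Both H3.3 ChIP titles open with an H3.1 name, and the labels' protocol names a Cbx2 antibody where the descriptions name HA. Genotype and description were followed. Bowtie 1.0.0 and mm9 are named in the submitters' processing notes. The sources used here do not give how bins were counted or peaks called.

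The authors deposited binned RPM of the 4 HA libraries and peak positions for H3.3K36M and H3.1K36M, with no height. Input libraries were not used here. Every RPM value (100%) was a whole multiple of its column's smallest step within 0.01 of a read, so whole reads were recovered. A count model across bins was not run, because with 1 library per line it has no residual degrees of freedom.

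Of 253926 rows, 245206 were kept as bins of 10 kb averaging 0.5 RPM or more, and wider rows, which are sums, were left out of the flanks. Folds are ratios of summed RPM with Clopper-Pearson 95% intervals on recovered reads, which have no molecular identifiers and are not independent molecules. Intervals of a ratio relative to flanks were computed on the log scale from the 4 read counts. Log2 ratios of bins used a pseudocount of 0.1 RPM, which understates low bins. The 2-fold rule for bins is a rule of size with no p-value. Named bins are the extremes of each ratio, the 3 bins richest in H3.3, runs of touching bins past 2-fold, all peaks touching a cluster, windows of 100 kb and the 100 kb on both sides of each edge. The H3.1 maximum, the bin beside the one with the highest ratio and the low type I bins were named after their values were seen. So were the other bin touched by H3.1K36M peaks and both interiors. The clusters and lists were chosen with earlier results of these data known. Peak positions lie on a 200 bp grid, and coordinates are 1-based in mm9. The steps were tested on simulated data. Software was Python 3.11.15 with scipy 1.17.1, pandas 2.3.3, numpy 2.4.6 and matplotlib 3.10.9.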

Additional observations from a re-analysis of the deposited data

How the results depend on the processing

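Of 188 alternatives over 40 values, 103 left the value within its counting interval or its count within 1.5 times, 76 moved it and 9 turned its direction. A ratio whose interval spans 1 was not counted as turned. Such ratios that crossed 1 are type II H3.3K36M over H3.3WT (0.982) and H3.3K36M over H3.1K36M (1.02), and type I H3.3K36M over H3.3WT (0.991, and 1.001 with 50 kb trimmed from each end), with the other values below. No paired analysis was possible because each line has 1 HA library. The ratios relative to flanks and their alternatives were added after seeing the data. The cause of the changes was not tested. Including the wider rows, which lie outside the clusters, turned no direction. The pseudocount of 0.01 RPM and the lack of a filter were tried on counts of bins only, which have no direction to turn. That pseudocount left every count within 1.5 times. Every cluster bin had passed the filter, so leaving it out could not change these counts. With 1 library per line, the difference between lines cannot be told apart from that between libraries.

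Scaling by the median of all bin ratios gave, in the type II cluster, 0.912 for H3.3K36M over H3.3WT, 1.55 for H3.3WT over H3.1WT and 1.27 for H3.3K36M over H3.1K36M. In the type I cluster it gave 0.921, 1.29 and 1.09, and the last 2 turned. With the chromosome's median ratio as 1, type II gave 1.13 (H3.3K36M over H3.3WT), 1.06 (H3.1K36M over H3.1WT), 1.17 (H3.3WT over H3.1WT) and 1.29 (H3.3K36M over H3.1K36M), and type I gave 1.02, 1.04 and, for the last pair, 0.995. With 50 kb trimmed from each end, type II gave 0.960 (H3.3K36M over H3.3WT), 1.002 (H3.3WT over H3.1WT) and 0.865 (H3.3K36M over H3.1K36M), and type I 0.896 for the last pair.

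Cluster over flanks is given next in the order H3.3K36M, H3.3WT, H3.1K36M, H3.1WT. For type II, flanks of 500 kb gave 0.730, 0.614, 1.03 and 1.02, the start-side flank 1.20 (turned), 0.905, 1.23 and 1.28, and the end-side flank 0.710, 0.594, 1.06 and 0.983 (turned). The rest of the chromosome gave 1.46 and 1.21 (both turned), 1.48 and 1.39, and medians per bin gave 0.631, 0.568, 1.09 and 1.04. For type I, flanks of 500 kb gave 0.384 and 0.352 in H3.3 and 0.702 in H3.1WT. The start-side flank gave 0.403 in H3.3K36M and 0.732 and 0.709 in H3.1, and the end-side flank gave 0.440 in H3.3K36M and 0.682 and 0.670 in H3.1. The rest of the chromosome gave 0.816, 0.768, 1.08 and 1.04 (the last 2 turned), and medians per bin gave 0.405 and 0.354 in H3.3.

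Relative to flanks, H3.3K36M over H3.3WT in type II was 1.19 with flanks of 500 kb, 1.33 with the start side, 1.20 with the end side and 1.21 with the rest of the chromosome. In type I it was 1.09, 1.07, 1.17 and 1.06. For H3.1K36M over H3.1WT in type II the start side gave 0.967 (turned), the end side 1.08 and the rest of the chromosome 1.07.

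Bins past the fold, higher and then lower, changed as follows. A 1.5-fold rule gave, in type II, 2 and 3 for H3.3K36M over H3.3WT, 11 and 6 for H3.3WT over H3.1WT, and 11 and 20 for H3.3K36M over H3.1K36M. In type I it gave 2 higher for H3.3K36M over H3.3WT, 1 lower for H3.1K36M over H3.1WT, 8 and 22 for H3.3WT over H3.1WT, and 8 and 22 for H3.3K36M over H3.1K36M. Median scaling gave 11 higher for H3.3WT over H3.1WT and 0 lower for H3.3K36M over H3.1K36M in type II. In type I it gave 8 higher and 0 lower for H3.3WT over H3.1WT and 6 higher and 0 lower for H3.3K36M over H3.1K36M. A pseudocount of 1 RPM left 0 lower in H3.3K36M over H3.1K36M in both clusters and 0 lower in H3.3WT over H3.1WT in type I. Of the type I peaks, 2 were at least as long as the median of the H3.3K36M list.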
